A study of Mus musculus with 6 samples.

Results

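Ribosomal protein pseudogenes are copies of the genes for the protein subunits of the ribosome. In the testis count table they were taken as the rows whose symbol starts with Rpl or Rps and holds -ps and that the authors kept after their filter on low counts. 7 rows met this rule (Rps6-ps4, Rpl27a-ps4, Rplp2-ps1, Rpl17-ps8, Rps15a-ps5, Rps15a-ps6 and Rps15a-ps4), of 20 rows with such a symbol, of 16911 rows kept and of 39253 genes in the table. Because the rule asks for a row that passed the filter, the 7 are not a sample of all such copies, and the other 13 rows are accounted for below. The 7 copy 5 parent genes: Rps6, Rpl27a, Rplp2, Rpl17 and Rps15a, the last of which has 3 copies among them.

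The study deleted Tardbp, the gene for the RNA-binding protein TDP-43, in male germ cells and sequenced RNA from whole testes at postnatal day 12. The conditional knockout (cKO) mice were described in the study as Tardbp Flox/null with Stra8-iCre, a Cre transgene driven by a promoter active in spermatogonia, which removes the floxed exon in germ cells, whereas the null allele is not limited to them. The controls were wild type (WT), with neither the null allele nor the transgene named for them, and the labels give C57BL/6 as the strain of both groups. There were 3 cKO and 3 WT libraries, each taken as 1 mouse. The Stra8-iCre line carries the STOCK prefix in its catalogue name, which is used for lines that are not a defined inbred strain, and no backcross is given in the sources used here. By the labels, batch 1 was made up of cKO 2 and cKO 3, and batch 2 of cKO 1 with all WT libraries. The study's methods call it a processing batch and do not say which step it was.

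A ribosomal protein gene is transcribed at a high level in every cell, and its short, spliced mRNA is a frequent template for retrotransposition by LINE elements. The mouse genome therefore carries many intronless copies of such mRNAs, known as processed pseudogenes, often at a place unrelated to the parent and with no promoter of their own. Where a copy differs from its parent at few bases, a short read can fit both, and a quantifier such as Salmon divides it between them by estimated abundance. A level listed for such a copy is therefore an estimate that depends on the sequence of the copy, of the parent and of the genome the reads came from. One of the 7, Rps15a-ps4, is also known as Lethe, a noncoding RNA described in mouse fibroblasts as responding to inflammatory signals and binding the RelA subunit of NF-κB.

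The libraries held 31713911, 34264419 and 43371284 estimated counts in cKO 1, cKO 2 and cKO 3, and 33099581, 31319519 and 30028685 in WT 1, WT 2 and WT 3. Tardbp had 255, 112 and 137 CPM (counts scaled to a common library size, with TMM factors) in cKO 1, cKO 2 and cKO 3, against 318, 334 and 312 CPM in WT 1, WT 2 and WT 3. All cKO libraries were below all WT libraries, and cKO 1 was the closest to them. With batch and genotype in the model the Tardbp difference was -0.33 on the log2 scale (SE 0.125, adjusted p = 0.107, edgeR quasi-likelihood test), and with genotype alone it was -0.94 (adjusted p = 0.0416). The 6 germ cell markers listed for this comparison summed to 278 to 676 CPM in cKO and 1565 to 1825 CPM in WT libraries, and 5 of them passed as lower. The 4 Sertoli cell markers summed to 1396 to 1985 CPM in cKO and 738 to 900 CPM in WT libraries, and all 4 passed as higher. Of all genes tested 9.24% passed as lower and 6.91% as higher. The 2 macrophage and 2 endothelium markers listed were also above every WT library in all cKO libraries, but none of them passed with batch. The Leydig, peritubular myoid and red blood cell markers overlapped between groups. In whole tissue a smaller number of cells of a type and less RNA per cell cannot be told apart, and the part of these shifts in the values below was not tested.

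Every one of the 7 copies lay inside the span of another gene in GENCODE vM39 (GRCm39). Rps6-ps4 was at chr2:75021417-75022166 on the minus strand, in an intron of the noncoding RNA gene 2600014E21Rik, which runs on the opposite strand. Rpl27a-ps4 was at chr13:99040732-99041178 on the plus strand, in an intron of Tnpo1, a nuclear import receptor gene on the opposite strand. Rps15a-ps5 was at chr5:105945187-105945579 on the minus strand, in an intron of Lrrc8d, a volume-regulated anion channel subunit gene on the opposite strand. Rps15a-ps6 was at chr11:6122644-6123036 on the minus strand, in an intron of Nudcd3, a chaperone partner gene on the same strand. Rpl17-ps8 was at chrX:95528465-95529085 on the plus strand, in an intron of Heph, the gene of the copper oxidase hephaestin, also on the same strand. Rplp2-ps1 was at chr12:75677745-75678092 on the minus strand and fell in an untranslated exon of Wdr89, and Rps15a-ps4 was at chr4:131947357-131947748 on the minus strand and fell in an exon of the noncoding RNA gene Gm65279, both on the same strand as the copy. Rps15a-ps4 shares its chromosome with Tardbp, at a distance of 16.75 Mb. GENCODE types Rplp2-ps1 as protein coding and the other 6 as processed or transcribed processed pseudogenes.

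The copies were close to their parents in sequence. Aligned with the parent's canonical transcript without gaps, Rps6-ps4 was identical over 750 bases, which is the whole coding sequence of Rps6, a protein of the small ribosomal subunit. Identity was 99.68% for Rpl17-ps8 (2 mismatches), 99.43% for Rplp2-ps1 (2 mismatches) and 98.73% for both Rps15a-ps6 and Rps15a-ps5 (5 mismatches each). It was 98.66% for Rpl27a-ps4 (6 mismatches) and 97.69% for Rps15a-ps4 (9 mismatches). Every mismatch lay in the parent's coding sequence. What this means for a read was measured by the share of a copy's overlapping words, each as long as a sequenced read of the study, that also occur in the parent. That share was 100% for Rps6-ps4, 61.04% for Rpl17-ps8, 33.47% for Rplp2-ps1, 24.78% for Rpl27a-ps4, 15.36% for Rps15a-ps6, 13.7% for Rps15a-ps4 and 13.31% for Rps15a-ps5. Counting any other transcript in the annotation, the share was 100% for Rplp2-ps1, whose 248 words all occur in Wdr89, and 100% for Rps15a-ps4, whose 292 words all occur in Gm65279. It was 80.42% for Rpl17-ps8, which shared words with 11 genes beside its parent, 4 of them named as further Rpl17 pseudogenes, and 31.99% for Rpl27a-ps4. These shares rest on GENCODE, whereas the authors mapped reads to an NCBI annotation, in which the ends of these rows can differ.

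The clearest case of shared sequence is Rps6-ps4, shown beside its parent over the first 90 bases of the coding sequence (GRCm39), with no base in capitals because none differs.
Rps6-ps4: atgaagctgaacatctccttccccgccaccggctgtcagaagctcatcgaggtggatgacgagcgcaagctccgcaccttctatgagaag
Rps6: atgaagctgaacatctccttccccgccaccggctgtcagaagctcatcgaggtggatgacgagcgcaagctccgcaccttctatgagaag
The 3 copies of Rps15a, a protein of the small subunit, are shown over 90 bases in which each differs from the parent at 3. Capitals mark differing bases in the copies and, in Rps15a, the positions at which any copy differs. All 3 copies carry the change T211C (positions counted from 1 at the start of the parent transcript, with the parent's base first), and the remaining changes in the window are private to 1 copy each.
Rps15a-ps6: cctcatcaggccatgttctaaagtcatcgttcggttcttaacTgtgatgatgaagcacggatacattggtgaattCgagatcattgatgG
Rps15a-ps5: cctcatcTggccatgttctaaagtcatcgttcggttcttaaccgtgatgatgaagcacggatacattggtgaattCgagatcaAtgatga
Rps15a-ps4: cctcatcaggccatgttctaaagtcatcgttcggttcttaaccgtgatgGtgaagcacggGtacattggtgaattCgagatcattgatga
Rps15a: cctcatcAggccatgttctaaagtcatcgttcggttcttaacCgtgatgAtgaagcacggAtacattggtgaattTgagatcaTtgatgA
Rpl27a-ps4 and Rpl27a, a protein of the large subunit, are shown over the 90 bases that hold 3 of their 6 differences, C557T, C563G and G575A.
Rpl27a-ps4: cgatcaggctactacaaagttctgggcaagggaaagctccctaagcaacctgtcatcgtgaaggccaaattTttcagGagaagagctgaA
Rpl27a: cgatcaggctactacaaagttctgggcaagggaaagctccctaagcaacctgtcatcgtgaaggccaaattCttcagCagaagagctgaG
Rplp2-ps1 and Rplp2, an acidic protein of the ribosomal stalk, are shown over 30 bases around A431G, which is 1 of the 2 bases that differ within the aligned coding sequence. The Rplp2 transcript extends beyond that part, and 9.51% of its read-length words occur in the copy.
Rplp2-ps1: atactagGcagcgtgggcatcgaagcggac
Rplp2: atactagAcagcgtgggcatcgaagcggac

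Rpl17-ps8 had 0.801, 0.0854 and 0.0916 CPM in cKO 1, cKO 2 and cKO 3, against 182, 109.1 and 187 CPM in WT 1, WT 2 and WT 3. In estimated counts these were 26.1, 2.8 and 3.7 in cKO and 6215, 3525 and 5725 in WT libraries, so that cKO 2 was below the 3 counts taken here as the floor of detection. It was listed near 0 in each cKO library and above 100 CPM in each WT library. The difference was -7.64 on the log2 scale with batch in the model (SE 0.488, adjusted p = 0.00284) and -8.96 without (SE 0.661, adjusted p = 0.00547). Its parent Rpl17, a protein of the large subunit, had 361, 291 and 332 CPM in cKO and 315, 293 and 349 CPM in WT libraries, which overlapped (log2 difference 0.18, SE 0.124, adjusted p = 0.334).

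Rplp2-ps1 had 108, 3.05 and 1.74 CPM in cKO 1, cKO 2 and cKO 3, against 183, 184 and 178 CPM in WT 1, WT 2 and WT 3. The WT libraries hardly differed, cKO 1 was at 59.4% of their mean, and cKO 2 and cKO 3 were at 1.68% and 0.958% of it. The fit with batch gave -0.75 (SE 0.194, adjusted p = 0.0423), a value set by cKO 1, since batch 1 holds no WT library. The fit without batch gave -2.28 (SE 1.31, adjusted p = 0.202), its error widened by the gap between cKO 1 and the other 2 cKO libraries. Rplp2 itself had 249, 262 and 229 CPM in cKO and 330, 239 and 348 CPM in WT libraries, with overlap, and did not pass (-0.30, SE 0.203, adjusted p = 0.333).

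Rpl27a-ps4 was split in the same way. It had 148, 14.5 and 12.3 CPM in cKO 1, cKO 2 and cKO 3, against 211, 190 and 211 CPM in WT 1, WT 2 and WT 3. cKO 1 was at 72.5% of the WT mean, cKO 2 at 7.11% and cKO 3 at 6.03%. The log2 difference was -0.46 with batch (SE 0.121, adjusted p = 0.0433) and -1.81 without (SE 0.884, adjusted p = 0.142). Here the parent was lower too. Rpl27a had 410, 291 and 295 CPM in cKO, against 549, 498 and 554 CPM in WT libraries, with no overlap, and its difference was -0.38 with batch (SE 0.0981, adjusted p = 0.0422) and -0.68 without (adjusted p = 0.0211).

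**Figure D1:**
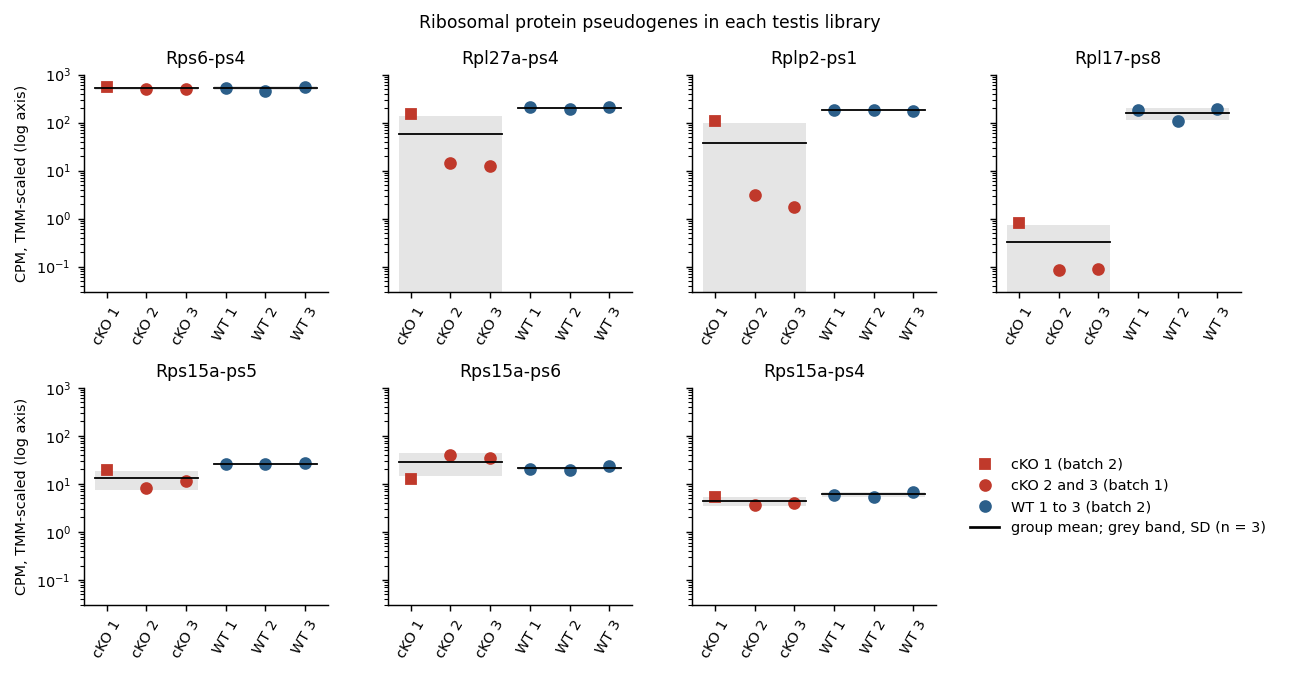
CPM of each of the 7 pseudogenes on a log axis in cKO 1 (square) and cKO 2 and cKO 3 (red circles), left, and in the WT libraries (blue circles), right, with the group mean as a line and its SD as a grey band (n = 3 each; where the SD exceeds the mean the band is drawn down to the axis). Rpl17-ps8 was under 1 CPM in all 3 cKO libraries, whereas Rpl27a-ps4 and Rplp2-ps1 were low in cKO 2 and cKO 3 only.

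The 3 copies of Rps15a did not move together. Rps15a-ps5 had 19.1, 8.03 and 11.8 CPM in cKO 1, cKO 2 and cKO 3, against 26.4, 25.9 and 27.0 CPM in WT 1, WT 2 and WT 3, with no overlap. It missed the threshold with batch in the model (-0.47, SE 0.209, adjusted p = 0.155) and passed without (-1.03, SE 0.29, adjusted p = 0.0326). Rps15a-ps6 had 12.6, 39.9 and 34.4 CPM in cKO, against 20.6, 19.9 and 23.2 CPM in WT libraries. It was below every WT library in cKO 1 and above every WT library in cKO 2 and cKO 3. The fit with batch, which follows cKO 1, called it lower (-0.75, SE 0.158, adjusted p = 0.0264), and the fit without batch gave the opposite sign (0.45, SE 0.374, adjusted p = 0.367), so no direction can be given for the genotype.

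Rps15a-ps4, or Lethe, had the lowest level per kilobase of the 7 (WT mean 15.4 CPM per kb). It had 5.34, 3.69 and 4.03 CPM in cKO 1, cKO 2 and cKO 3, against 6.00, 5.45 and 6.67 CPM in WT 1, WT 2 and WT 3. The groups were separated by a narrow gap, and neither fit passed (-0.18 with batch, SE 0.239, adjusted p = 0.622, and -0.47 without, adjusted p = 0.128). The parent Rps15a had 213, 150 and 159 CPM in cKO, against 282, 295 and 295 CPM in WT libraries, with no overlap. It passed as lower in both fits, at -0.45 with batch (SE 0.0913, adjusted p = 0.0245) and -0.74 without (adjusted p = 0.0157).

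Rps6-ps4 had the highest level per kilobase of the 7 and the smallest difference between groups. It had 547, 492 and 505 CPM in cKO 1, cKO 2 and cKO 3, against 531, 462 and 562 CPM in WT 1, WT 2 and WT 3, and the groups overlapped (0.08, SE 0.119, adjusted p = 0.673). The row of its parent Rps6 held 34.0, 17.4 and 20.6 CPM in cKO and 29.5, 31.9 and 34.7 CPM in WT libraries, also with overlap. Its difference was 0.09 with batch (SE 0.147, adjusted p = 0.708) and -0.42 without (adjusted p = 0.213). Per kilobase of sequence, the WT mean was 691 CPM for Rps6-ps4 and 35.7 CPM for the canonical transcript of Rps6. The copy was thus listed far above the gene that encodes the protein, in a pair whose coding sequences are the same letter for letter.

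In the fit with batch and genotype, 4 of the 7 pseudogenes were lower in cKO, none was higher and 3 did not pass. Over all 16632 genes tested, 9.24% were lower and 6.91% higher at an adjusted p under 0.05. The 4 are Rpl17-ps8, Rplp2-ps1, Rpl27a-ps4 and Rps15a-ps6, and the last of these has the sign conflict given above. With genotype alone 2 of the 7 passed, Rpl17-ps8 and Rps15a-ps5, both lower, where 16.7% of all genes were lower and 17.1% higher. The calls other than Rpl17-ps8 did not hold when a WT library was left out. Without WT 1, WT 2 or WT 3 only Rpl17-ps8 passed of the 7, and over all genes 817, 4 and 418 passed in place of 2687. In those fits the adjusted p ran from 0.0574 to 0.0676 for Rps15a-ps6, from 0.0707 to 0.102 for Rpl27a-ps4 and from 0.0877 to 0.105 for Rplp2-ps1. Without cKO 1, 6 of the 7 passed, 5 lower and Rps15a-ps6 higher (0.79), and 10188 of all genes passed. In that fit the remaining cKO libraries are all batch 1 and the WT libraries all batch 2, so batch and genotype cannot be told apart.

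Ranges gave a count that rests on no model. All 3 cKO libraries were below all 3 WT libraries for 5 of the 7 pseudogenes (Rpl17-ps8, Rplp2-ps1, Rpl27a-ps4, Rps15a-ps5 and Rps15a-ps4) and above them for none. Over all genes tested 27.1% were below and 25.7% above. An on-off pattern was defined as a deposited log2 value at least 3 away from the WT mean, in 1 direction, in every cKO library. Of the 7, Rpl17-ps8 met it, at -7.49, -10.07 and -10.01 in cKO 1, cKO 2 and cKO 3. Among all genes tested 0.0902% met it downwards (15 genes) and 0.0361% upwards (6 genes). Asking this of cKO 2 and cKO 3 alone, a rule added after the values were seen, took in Rplp2-ps1 (-5.87 and -6.66) and Rpl27a-ps4 (-3.81 and -4.04), against 0.487% of all genes downwards and 0.241% upwards.

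**Figure D2:**
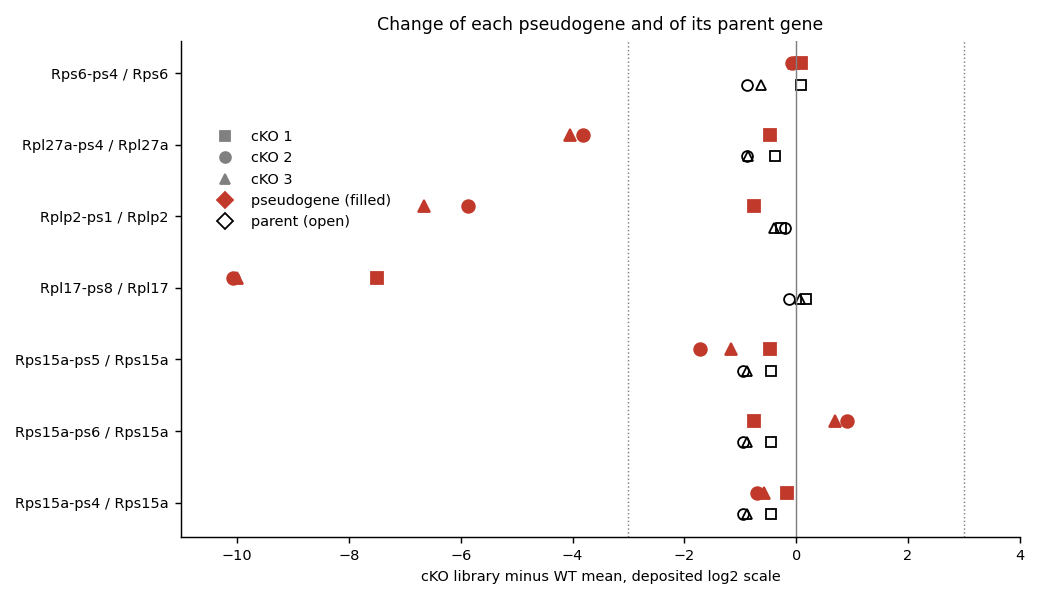
Log2 value of each cKO library minus the WT mean, on the deposited scale, for each pseudogene (filled red) and its parent (open black), with dotted lines at 3 log2 units either side of 0. Rpl17-ps8 lies beyond the line in all 3 cKO libraries, Rplp2-ps1 and Rpl27a-ps4 in cKO 2 and cKO 3, and every parent lies within 1 log2 unit of 0.

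Set against its parent within each library, a copy's count is free of any scaling between libraries. The ratios listed are of counts, whereas the log2 ratios and their differences were taken from the deposited log2 values. Those values hold a small added count (prior count of 2), which damps the difference where counts are few, as for Rpl17-ps8 in cKO. For Rpl27a-ps4 the ratio to Rpl27a was 0.361, 0.0499 and 0.0417 in cKO 1, cKO 2 and cKO 3, against 0.384, 0.383 and 0.381 in WT 1, WT 2 and WT 3. The ratio was thus nearly constant over the WT libraries (SD of the log2 ratio 0.00528), and the difference of its mean log2 value, cKO minus WT, was -2.07. Leaving out single libraries, an alternative added after the data were seen, gave -3.06 without cKO 1, -1.64 without cKO 2 and -1.51 without cKO 3. For Rplp2-ps1 the ratio to Rplp2 was 0.433, 0.0117 and 0.00758 in cKO and 0.554, 0.767 and 0.512 in WT libraries, a log2 difference of -4.13, with -5.96 without cKO 1, -3.37 without cKO 2 and -3.07 without cKO 3. For Rpl17-ps8 the ratio to Rpl17 was 0.00222, 0.000293 and 0.000276 in cKO and 0.578, 0.372 and 0.536 in WT libraries, a log2 difference of -9.23. In these 3 pairs the ratio was lower in every cKO library than in any WT library. Rps15a-ps4 went the other way, with ratios of 0.0251, 0.0246 and 0.0253 to Rps15a in cKO and 0.0212, 0.0185 and 0.0226 in WT libraries (log2 difference 0.28), since the difference was larger for the parent than for the copy.

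These 4 pairs did not overlap, and each had p = 0.10 in a two-sided exact permutation test of the log2 ratio, the smallest p that 3 libraries against 3 can give, so no ratio could pass 0.05. The other 3 ratios overlapped between groups. Rps6-ps4 was counted 16.1, 28.3 and 24.5 times as often as Rps6 in cKO and 18.0, 14.5 and 16.2 times in WT libraries (log2 difference 0.47, 0.30 to 0.70 with 1 library left out, exact permutation p = 0.30). Rps15a-ps6 had ratios of 0.0592, 0.266 and 0.216 in cKO and 0.0732, 0.0673 and 0.0786 in WT libraries (log2 difference 1.05, with 1.72 without cKO 1 and 0.63 without cKO 2, exact permutation p = 0.40). Rps15a-ps5 had 0.0898, 0.0536 and 0.0738 in cKO and 0.0936, 0.0877 and 0.0915 in WT libraries (log2 difference -0.35, with -0.53 without cKO 1 and -0.16 without cKO 2, exact permutation p = 0.20). These are 7 tests, given without adjustment.

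Adding a parent to all its pseudogene rows gives a family sum in which a read moved between them stays counted. The Rpl17 family held 362, 291 and 332 CPM in cKO 1, cKO 2 and cKO 3, against 497, 402 and 537 CPM in WT 1, WT 2 and WT 3. The sums did not overlap, at 75.7%, 60.9% and 69.4% of the WT mean, while the parent alone overlapped, with cKO 1 above every WT library. Copies without a row in the count table, among them 10 of the 11 genes with which Rpl17-ps8 shares words, are not in the sum, and a division of reads with them was not tested. The Rplp2 family held 357, 265 and 231 CPM in cKO and 513, 423 and 527 CPM in WT libraries. Its sum leaves out Wdr89, which has a row in the count table and holds all read-length words of Rplp2-ps1. Reads divided with Wdr89 would therefore not stay counted in it. The Rpl27a family held 558, 305 and 307 CPM in cKO and 760, 688 and 765 CPM in WT libraries. The Rps15a family held 250, 201 and 209 CPM in cKO, against 335, 347 and 352 CPM in WT libraries. The Rps6 family held 581, 510 and 526 CPM in cKO and 561, 494 and 597 CPM in WT libraries, and was the only 1 of the 5 whose groups overlapped.

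With batch in the model 2 of the 5 family sums passed as lower, Rpl27a (-0.40, SE 0.0983, adjusted p = 0.037) and Rps15a (-0.47, SE 0.0882, adjusted p = 0.0212), beside 9.26% of all features in that table. The Rpl17 and Rplp2 sums did not pass with batch (-0.40, adjusted p = 0.132, and -0.45, adjusted p = 0.0778) and did pass with genotype alone (-0.54, adjusted p = 0.0321, and -0.78, adjusted p = 0.0216), which made 4 of 5 beside 16.7% of all features. Among the 5 parents taken alone, 2 were lower and none higher in either fit, where 9.24% of all genes tested were lower with batch and 16.7% with genotype alone. With batch in the model and any 1 WT library left out, 0 family sums and 0 parents passed in edgeR, although 3 or 4 sums and 2 or 3 parents had an unadjusted p under 0.05. Among 76 ribosomal protein genes picked by symbol after the data had been seen, 8 were lower, none was higher and 68 did not pass with batch. Over all genes tested 9.24% were lower and 6.91% higher in that fit, so the number lower was near the share over all genes. The median log2 difference of the 76 was -0.12 beside 0.01 over all genes tested and -0.47 over the 7 pseudogenes.

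**Figure D3:**
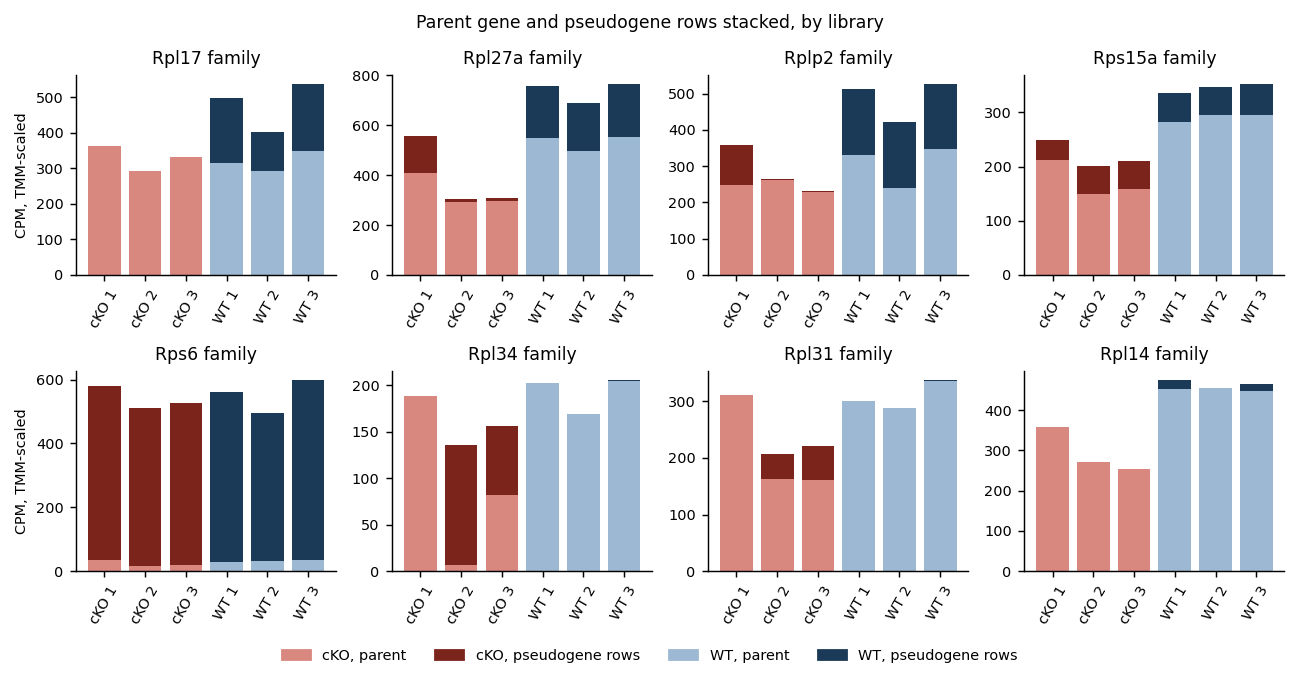
CPM of the parent (light) and of its pseudogene rows (dark) stacked in each library, cKO in red at the left and WT in blue at the right, for the 5 families with a kept pseudogene and for Rpl34, Rpl31 and Rpl14. Pseudogene counts of the Rpl34 and Rpl31 families stand in cKO 2 and cKO 3 with a smaller parent bar, while those of the Rpl17, Rpl27a and Rplp2 families are reduced or missing there.

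The 13 rows that the authors' filter removed include both directions. Rpl34-ps1 was listed at 0 CPM in cKO 1, 129 CPM in cKO 2 and 73.8 CPM in cKO 3, against 0 in all 3 WT libraries, and its parent Rpl34 had 189, 6.47 and 82.3 CPM in cKO, against 203, 169 and 205 CPM in WT libraries. In cKO 2 the copy therefore held 19.9 times the count of its parent. Rpl31-ps12 was listed at 0, 44.0 and 60.04 CPM in cKO and at 0, 0 and 0.0919 CPM in WT 1, WT 2 and WT 3, and its parent Rpl31 had 311, 163 and 160 CPM in cKO, against 301, 288 and 337 CPM in WT libraries. RefSeq types both of these rows as protein coding despite their symbols. Each reached 0.5 CPM in 2 libraries, under the 3 that the filter asks for, so that a copy seen in cKO 2 and cKO 3 alone is left out of the kept rows. The Rpl34 family sum was 188.6, 135.4 and 156.1 CPM in cKO 1, cKO 2 and cKO 3, against 203.1, 169.2 and 205.3 CPM in WT libraries. The Rpl31 family sum was 311.1, 207.3 and 220.5 CPM in cKO, against 300.7, 287.5 and 336.6 CPM in WT libraries. Both sums overlapped between groups.

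Rpl14-ps1 shows the same kind of pattern within the WT group. It was listed at 0, 0.177 and 0 CPM in cKO 1, cKO 2 and cKO 3, against 21.2, 0 and 17.9 CPM in WT 1, WT 2 and WT 3, so it was listed at 0 in WT 2 and well above the floor in WT 1 and WT 3. Its parent Rpl14 had 358, 271 and 254 CPM in cKO, against 452, 454 and 446 CPM in WT libraries, and thus differed little between the WT libraries. On the other side of the filter, Rps15a-ps4 had the lowest WT mean of the 7 rows kept, at 3.69 to 6.67 CPM over all libraries, and Rps18-ps4, at 0.252 to 0.611 CPM, was not kept. Rpl13-ps6, Rpl17-ps10 and Rps12-ps10 were listed at 0.271 CPM or less in every library, and 6 further rows were at 0 in all of them.

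For the copies inside other genes, the level of the surrounding gene was set beside that of the copy. Nudcd3, around Rps15a-ps6 on the same strand, had 56.2, 98.2 and 93.1 CPM in cKO 1, cKO 2 and cKO 3, against 70.8, 65.6 and 72.5 CPM in WT 1, WT 2 and WT 3. Like Rps15a-ps6, it was below the WT libraries in cKO 1 and above them in cKO 2 and cKO 3. Wdr89, whose exon holds Rplp2-ps1, had 14.5, 45.0 and 36.7 CPM in cKO, against 11.3, 10.5 and 11.9 CPM in WT libraries, and was highest in the 2 libraries in which Rplp2-ps1 was lowest. Its log2 difference was 0.37 with batch (SE 0.161, adjusted p = 0.149) and 1.51 without (adjusted p = 0.0233). The counts that Rplp2-ps1 lacked in cKO 2 and cKO 3 were several times those that Wdr89 gained. Whether reads were divided between the 2 rows was not tested.

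Heph, around Rpl17-ps8 on the same strand, had 47.1, 24.7 and 35.8 CPM in cKO and 20.9, 21.5 and 28.7 CPM in WT libraries, with overlap. It rose with batch in the model (0.99, adjusted p = 0.0348) and did not pass without (0.59, adjusted p = 0.0959), and in neither fit was it lower, as the copy was. Tnpo1, on the strand opposite Rpl27a-ps4, had 248, 252 and 252 CPM in cKO and 276, 265 and 269 CPM in WT libraries. All cKO libraries were below all WT libraries, and Tnpo1 did not pass (-0.12, adjusted p = 0.329). The copy within it was at 7.11% and 6.03% of its WT mean in cKO 2 and cKO 3. Lrrc8d, opposite Rps15a-ps5, rose (114, 156 and 164 CPM in cKO, against 92.6, 85.0 and 91.2 CPM in WT libraries, log2 difference 0.35, adjusted p = 0.046). The noncoding 2600014E21Rik, opposite Rps6-ps4, had 20.2, 6.98 and 12.0 CPM in cKO and 7.45, 10.8 and 7.91 CPM in WT libraries, with overlap, and passed with batch (1.21, adjusted p = 0.0433) but not without (0.58, adjusted p = 0.243). Gm65279, around Rps15a-ps4, has no row in the count table.

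The strain background of the mice near each copy is not readable from gene counts, and variants were not analysed here, so its part in the on-off patterns was not tested. What the counts give is whether the genes around a copy switched with it. Within 1 Mb of Rpl17-ps8 8 genes were tested, of which 1 passed with batch, 1 with genotype alone, and 4 did not overlap between groups (50%). Of the 14 genes around Rpl27a-ps4 0 passed with batch, 3 with genotype alone, and 7 did not overlap (50%). Of the 17 around Rplp2-ps1 3 passed with batch, 9 with genotype alone, and 12 did not overlap (70.6%). Over all genes tested 16.2% passed with batch and 33.8% with genotype alone, in either direction, and 52.8% did not overlap. None of these neighbours within 1 Mb met the on-off rule in all cKO libraries or in cKO 2 and cKO 3. Within 5 Mb none met it in all cKO libraries. In cKO 2 and cKO 3 it was met there by 1 of 56 genes around Rpl17-ps8, 2 of 73 around Rplp2-ps1 and 0 of 68 around Rpl27a-ps4. Over all genes tested 0.487% met it downwards in those libraries and 0.241% upwards. The nearest approach within 1 Mb was Hsf3, a heat shock factor gene 28.6 kb from Rpl17-ps8, at 0.755, 0.121 and 0.162 CPM in cKO and 1.17, 1.28 and 0.946 CPM in WT libraries, with no overlap but no call (-0.56, adjusted p = 0.381). It was named after its values were seen.

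Around the 4 copies with no on-off pattern, the share of neighbours that did not overlap was 50% of 18 for Rps6-ps4, 36.4% of 11 for Rps15a-ps5, 41.9% of 31 for Rps15a-ps6 and 72.7% of 33 for Rps15a-ps4. These shares moved with the window. Within 250 kb they ran from 0% of 3 for Rps6-ps4 to 100% of 6 for Rplp2-ps1, on 12 genes or fewer each, and within 5 Mb from 48.9% of 88 for Rps15a-ps6 to 60.7% of 56 for Rpl17-ps8. One neighbour of Rps6-ps4 switched in cKO 2 and cKO 3. Gm13653, 0.5 kb away and typed by RefSeq as a pseudogene, had 0.481, 27.8 and 26.3 CPM in cKO 1, cKO 2 and cKO 3, against 0.345, 0.592 and 0.619 CPM in WT 1, WT 2 and WT 3 (log2 difference -0.08 with batch, adjusted p = 0.911, and 5.12 without, adjusted p = 0.0226), while Rps6-ps4 beside it stayed within 492 to 547 CPM in cKO. It too was named after its values were seen. The patterns seen in cKO 2 and cKO 3 alone, for Rplp2-ps1, Rpl27a-ps4, Rpl34-ps1, Rpl31-ps12 and Gm13653, run along the batch, and with no WT library in batch 1 a difference between mice, a batch and the genotype cannot be told apart for them.

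**Figure D4:**
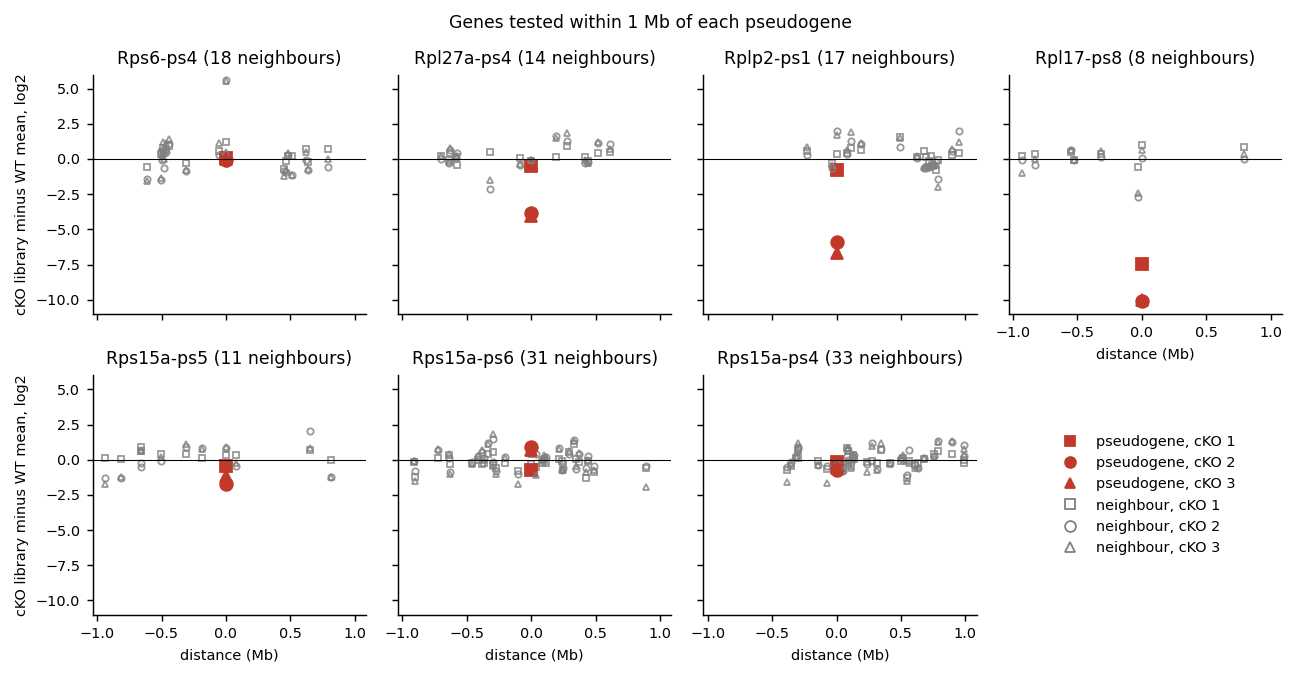
Log2 value of each cKO library minus the WT mean for the genes tested within 1 Mb (grey, open) and for the pseudogene itself (red, filled), by distance from the pseudogene in Mb, with different marks for cKO 1, cKO 2 and cKO 3. Rpl17-ps8, Rplp2-ps1 and Rpl27a-ps4 stand below all of their neighbours in cKO 2 and cKO 3, and Gm13653 stands above at the position of Rps6-ps4.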

How the data were processed

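RNA from the whole testes of 3 cKO and 3 WT mice had been sequenced by the authors as single-end reads of stranded mRNA libraries. The authors mapped the reads with Salmon 1.2.0 to an NCBI annotation on GRCm39 and summed transcripts to bias-corrected expected counts per gene with tximport. The setting for strand is not given in the sources used here. The deposited log2 values are log2 CPM with TMM scaling, made by the authors for the genes they kept and found here, from the counts with a prior count of 2, to hold no batch correction. Software named by the submitters' notes included bcl2fastq 2.20, limma 3.46.0 and edgeR 3.32.1 under R 4.0.4.

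Expected counts were rounded and tested here with the edgeR 4.0.16 quasi-likelihood test in R 4.3.3 (TMM, at least 0.5 CPM in at least 3 libraries, Benjamini-Hochberg adjustment over 16632 genes, threshold 0.05), with batch and genotype in the model. Batch 1 holds no WT library, so this genotype term rests on cKO 1 against WT. All p-values named adjusted come from this tool unless another is named. At these depths, 3 counts correspond to 0.0742 to 0.0981 CPM, and the spread between mice limits precision more than counting does. The test was checked on simulated counts. Their batch effect was far smaller than the gap of Rplp2-ps1 between cKO 1 and cKO 2 or cKO 3, so the check does not cover such splits. Ratios to parents were compared by exact permutation (scipy 1.17.1). Sequences, positions and gene types are from GENCODE vM39 on GRCm39, other types and names from RefSeq on GRCm38.p6, and copies were aligned with Biopython 1.88.

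Values in every library were given for members passing the batch fit without overlap, for on-off members, for the 10 of highest mean CPM and for the 5 of smallest change, which took in all 7, and for their parents and Tardbp. The members, lists and rules were chosen with earlier results of these data known. Alternatives were the batch term, batch 2 alone, DESeq2 1.42.0, limma-trend (limma 3.58.1), other scalings and filters, replicate blocks and leaving out each library. The same replicate numbers did not pair the libraries.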

Additional observations from a re-analysis of the deposited data

Results flagged for a closer look

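A pair of pseudogene rows outside the kept genes held a signal in cKO libraries above that in the WT libraries. Rpl34-ps1 reached 128.9 CPM in cKO 2 and 73.8 CPM in cKO 3, against 0 in cKO 1 and in all 3 WT libraries. Taking 3 counts per library as the floor (0.0981 CPM in the shallowest WT library), that is at least 1310-fold higher in cKO 2 and at least 752-fold higher in cKO 3. Rpl31-ps12 reached 60.04 CPM in cKO 3 and 44.0 CPM in cKO 2, against 0, 0 and 0.0919 CPM in WT 1, WT 2 and WT 3, and 0 in cKO 1. Rpl34 and Rpl31 were lower in the same libraries, as the report gives, and the sums of parent and copy overlapped between groups for both families. Groups of 3 libraries were too small for a test of single libraries.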

How the results depend on the processing

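Rpl17-ps8 was lower with an adjusted p under 0.05 in every fit run (log2 difference -10.67 to -7.49) except the one with genotype alone and without WT 2 (-9.18, adjusted p = 0.0658), and Rps6-ps4 passed in none (-0.09 to 0.13). Of the 7 pseudogenes 4 passed with batch and genotype, 2 with genotype alone, 2 with DESeq2 and genotype alone (where Rpl27a-ps4 and Rplp2-ps1 had no adjusted p) and 1 with a replicate block beside batch. Leaving out 1 library gave 0 to 6 pseudogenes, 0 to 3 parents, 0 to 4 families and 0 to 10188 genes, counting the fits with genotype alone. With batch in the model the ranges were 1 to 5 pseudogenes and 4 to 4133 genes. The fit without cKO 1 can hold no batch term beside genotype and is counted among those with genotype alone. The 0 over all genes came from edgeR with genotype alone and without WT 2, where 5911 of 16299 genes had an unadjusted p under 0.05. The batch 2 libraries alone (cKO 1 and the 3 WT) gave 4157 genes. Fits on all libraries gave 5624 genes with genotype alone, 1217 with the replicate block and batch, 4285 with the block and no batch and 6978 in DESeq2 without batch. Family sums passed in 4 of 5 with genotype alone, in 4 in DESeq2 without batch and in 4 with the block and no batch, and in 0 with the block and batch, as did 0 parents. The replicate numbers did not pair the libraries, with correlations of -0.097, -0.063 and 0.008 between libraries of the same number. The Tardbp difference was -0.94 with genotype alone, -0.33 in DESeq2 with batch, where it passed, -0.94 in DESeq2 without batch, -1.03 with the block and no batch and -1.39 to -0.31 with 1 library left out. Rps15a-ps6 changed sign at 0.45 with genotype alone, 0.30 with the block and no batch, 0.44 in DESeq2 without batch and 0.15 to 0.79 with genotype alone and 1 library left out (-0.81 to 0.79 over all fits with 1 left out). Rps6 changed sign at -0.42 with genotype alone, -0.42 in DESeq2 without batch and -0.47 with the block and no batch. It was at -0.76 without cKO 1 and at -0.76 to -0.23 with genotype alone and 1 library left out (-0.76 to 0.14 over all fits with 1 left out). The fits in DESeq2 without batch and those with genotype alone and 1 library left out were chosen after seeing the data. Rpl27a-ps4 did not pass with library size scaling alone (adjusted p = 0.051) and Rplp2-ps1 did not in limma-trend (adjusted p = 0.0872). With words of 31 bases in place of read-length words, the shares found in the parent were 53.04% to 100%. Windows of 250 kb and 5 Mb in place of 1 Mb moved the shares of neighbours, as given beside them. The cause of these changes was not tested.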
